A study of Homo sapiens with 8 samples.

Results

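The guide pool counted in iCas9 KPL-1 cells carried 25 guides against 5 genes that dividing cells need, 5 guides for each of PCNA, POLR2A, POLR2L, RPA3 and SF3B3. They were chosen by the gene name at the start of the guide name and made up 25 of the 5995 guides in the table. KPL-1 is a human breast cancer cell line, and iCas9 marks a Cas9 nuclease induced by doxycycline. The pool, named sgKMT2pool, tiles SETD1A and related genes to find the stretches of protein that cells depend on, and was counted in 1 library at day 14 (10255022 reads) and 1 library at day 0 (10145466 reads). The day 14 library is labelled with knockout of functional domains and the day 0 library as wild type, and both come from the same line. RNA of the same line was measured at day 7 of doxycycline in 3 sgSETD1A libraries, labelled SETD1A knockout, and 3 sgEmpty libraries, labelled wild type. All groups carried iCas9, and the labels name neither the promoter that drives it nor whether the line was 1 clone.

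All 5 genes encode parts of machines that every dividing cell uses. PCNA is the sliding clamp that holds DNA polymerases and repair enzymes on the template, and RPA3 is the small subunit of replication protein A, which coats single-stranded DNA. POLR2A is the catalytic subunit of RNA polymerase II, and POLR2L is a small subunit that RNA polymerases I, II and III share. SF3B3 is a large subunit of SF3B, the part of the U2 snRNP that recognises the branch site of introns before splicing. Cas9 cuts in such genes give frameshifts in many cells, and cells that lose the gene drop out of the culture, so these guides are widely used as positive controls in growth screens.

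The count table held guide names and reads, with no guide sequences, so the guides are given here by the number in their name. That number was taken to be a position in bases along the coding sequence. Nothing in the table defines the number, and the residues below hold only under that reading.

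The essential gene guides were lower at day 14 than at day 0. The change of a guide was taken as the log2 ratio of CPM + 1 (a guide's reads scaled to a common library total), day 14 over day 0, after subtracting the median of the 200 guides whose names begin with HGLibA. These follow the naming of a genome-wide human library, and taking them as guides without a target in the genome rests on that naming, since the table does not define them. The 25 guides had a median log2 ratio of -3.63, with the lowest at -7.96 and the highest at -0.41. The median of all 5991 guides with at least 30 reads at day 0 was -0.92. Each day has a single library, so these values carry no test and no spread between cultures, and the labels do not say how many cells the pool was grown from.

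Of the 25 guides, 24 had a log2 ratio of -1 or below, against 46.7% of all guides. A log2 ratio of -2 or below was reached by 20 of the 25, against 16.6% of all guides. Among HGLibA guides, 4 of 200 (2.0%, exact 95% interval 0.548% to 5.04%) reached -1 and 0 of 200 reached -2, which allows a share of up to 1.5%. No essential gene guide lay above 0, the median of the HGLibA guides. In 99.2% of the 5000 pairs of an essential gene guide and an HGLibA guide, the essential gene guide was the lower one. The essential gene guides together held 9096 reads at day 14, or 0.0887% of that library, against 36743 reads at day 0, or 0.362%.

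Guides against AAVS1, a locus used as a safe harbour for inserted genes, gave a second reference within the pool. AAVS1_1 had 1263 reads at day 14 and 2061 at day 0, AAVS1_4 had 709 at day 14 and 1039 at day 0, and AAVS1_5 had 833 at day 14 and 998 at day 0. AAVS1_2 had 1194 reads at day 14 and 1183 at day 0, and AAVS1_3 had 6461 at day 14 and 3378 at day 0. The 5 log2 ratios ran from -1.46 to 0.18 with a median of -1.01, and 3 of the 5 reached -1 while 0 reached -2. Of the essential gene guides, 23 of 25 lay below the lowest AAVS1 guide, while 20 of 25 lay below the lowest HGLibA guide, at -1.88. Many other guides did so too. Of all 5991 guides, 29.9% lay below SF3B3_589 (-1.49), the highest of these 23. Below SF3B3_1935 (-2.09), the highest of these 20, lay 14.5%. At least those shares of the pool were thus lower than the lowest AAVS1 and HGLibA guides. Set against the median of the AAVS1 guides, a centring chosen after the values were seen, the median of the 25 was -2.61 and 20 of them reached -1. Without any centring the median was -2.88 and 21 reached -1, because the HGLibA guides themselves stood 0.74 higher at day 14 on the log2 scale.

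POLR2L had the lowest target median, and none of its guides stayed near the controls. POLR2L_15 had 537 reads at day 14 and 3497 at day 0, and POLR2L_90 had 422 at day 14 and 3551 at day 0. POLR2L_49 had 140 reads at day 14 and 1858 at day 0. POLR2L_26 and POLR2L_38 had 0 reads at day 14, from 1035 and 202 reads at day 0. All 5 were thus low at day 14, and 2 of the 3 members with no read left in the day 14 library were POLR2L guides.

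As a share of the day 0 abundance kept at day 14 relative to the median HGLibA guide, computed from reads without a pseudocount, POLR2L_49 kept 4.45% (exact Clopper-Pearson 95% interval 3.72% to 5.28%). POLR2L_90 kept 7.01% and POLR2L_15 kept 9.06% on the same scale. All such intervals cover counting error only, since each day has 1 library. They treat every read as an independent draw, and the reads carry no molecular identifiers. Taking 3 reads per library as the floor, the share kept was at least 585-fold lower for POLR2L_26 and at least 114-fold lower for POLR2L_38 than for the median HGLibA guide. The median log2 ratio over the 5 guides was -4.39, the value of POLR2L_49, a guide with reads on both days. This median still depends on the pseudocount. With 5 CPM, POLR2L_38 stood at -3.04 and the median was -3.67, the value of POLR2L_90. The 5 cut sites lie close together under the reading of the numbers, at residues 5, 9, 13, 17 and 30, with 11 or 12 bases between neighbours in the first 4.

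PCNA guides were next, with a median log2 ratio of -4.03, and 4 of the 5 behaved alike. PCNA_82 had 44 reads at day 14 and 763 at day 0, PCNA_157 had 101 at day 14 and 1068 at day 0, PCNA_283 had 140 at day 14 and 1708 at day 0, and PCNA_423 had 95 at day 14 and 1009 at day 0. These 4 guides kept between 3.40% (PCNA_82) and 5.58% (PCNA_157), and their log2 ratios spanned 0.56. PCNA_374 had 593 reads at day 14 and 1188 at day 0, and kept 29.4% (95% interval 26.6% to 32.5%), a log2 ratio of -1.75. This guide sits 91 bases after PCNA_283 and 49 bases before PCNA_423, both of which were among the lowest 43 of the 5991 guides. The interval of PCNA_374 did not meet that of any other PCNA guide.

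SF3B3 guides had a median log2 ratio of -3.58, with 3 guides close together and 2 higher ones. SF3B3_375 had 148 reads at day 14 and 1146 at day 0, SF3B3_1266 had 290 at day 14 and 2530 at day 0, and SF3B3_2156 had 44 at day 14 and 374 at day 0. These 3 guides kept 7.62%, 6.76% and 6.94%, and their intervals overlapped one another. SF3B3_589 had 968 reads at day 14 and 1612 at day 0 and kept 35.4%, and SF3B3_1935 had 720 at day 14 and 1830 at day 0 and kept 23.2%, and the intervals of this pair did not overlap. The higher 2 guides alternate with the lower 3 along the gene, at residues 197 and 645 against 125, 422 and 719.

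POLR2A guides had a median log2 ratio of -3.01 and held both the lowest guide of the whole pool and one of the weakest of the 25. POLR2A_3145 had 0 reads at day 14 and 1503 at day 0, so its share kept, taken at the floor of 3 reads, was at least 849-fold lower than that of the median HGLibA guide. POLR2A_1220 had 187 reads at day 14 and 1556 at day 0, POLR2A_2377 had 268 at day 14 and 1165 at day 0, and POLR2A_3482 had 364 at day 14 and 1773 at day 0, and they kept 7.09%, 13.6% and 12.1%. POLR2A_1569 had 1400 reads at day 14 and 1908 at day 0 and kept 43.3% (95% interval 40.4% to 46.4%), with a log2 ratio of -1.20. That value lies within the range of the AAVS1 guides and above 1 of the 200 HGLibA guides. The place of guides with 0 reads in a ranking depends on the pseudocount, and 18 of the 5991 guides had 0 reads at day 14, 15 of them outside the essential gene set.

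RPA3 guides had a median log2 ratio of -2.90, and with HGLibA centring RPA3 was the only target with a guide above -1. Without centring, POLR2A_1569 (-0.46), SF3B3_589 (-0.75) and RPA3_21 (-0.82) were also above -1, and centred on AAVS1 guides PCNA_374 (-0.73) was too. RPA3_46 had 66 reads at day 14 and 621 at day 0, RPA3_160 had 277 at day 14 and 1257 at day 0, and RPA3_223 had 168 at day 14 and 871 at day 0, and they kept 6.27%, 13.0% and 11.4%. RPA3_21 had 1094 reads at day 14 and 1913 at day 0 and kept 33.7%. RPA3_196 had 1030 reads at day 14 and 805 at day 0, and it alone among the 25 had more reads at day 14 than at day 0. Relative to the median HGLibA guide it kept 75.5% (95% interval 68.8% to 82.9%), a log2 ratio of -0.41, and 34 of the 200 HGLibA guides lay lower. The sign of its log2 ratio depended on the centring, with 0.34 without centring, 0.51 centred on all guides, 0.49 with TMM factors and 0.61 centred on AAVS1 guides. Its neighbours are close, RPA3_160 at 36 bases before it and RPA3_223 at 27 bases after it.

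Across the 5 targets, the spread lay mostly among guides of the same gene. Differences between target means made up 25.3% of the sum of squares of the 25 log2 ratios, a share that depends on the pseudocount through the 3 guides at 0 reads. The order of the target medians, lowest first, was POLR2L, PCNA, SF3B3, POLR2A and RPA3, and the ranges of guides overlapped between all neighbours in that order. Of the alternatives tried, 7 were set beside this order. The centrings, TMM factors and dropping the minimum at day 0 were not among them. POLR2L had the lowest value in all 7, and RPA3 had the highest in 6. SF3B3 had the highest when guides with under 500 reads at day 0 were left out, and so lay above POLR2A there. The middle of the order was less stable. POLR2A was also below SF3B3 by means over guides (-3.75 against -2.92) and by summed reads (-2.59 against -2.55). Without the lowest guide it was below SF3B3 too (-2.92 against -2.84). In the rest of the 7, SF3B3 stayed below POLR2A. By means, POLR2A was also slightly below PCNA. PCNA lay close to POLR2L with a pseudocount of 5 CPM (-3.62 against -3.67) and without the lowest guide (-4.03 against -4.10). The same held with at least 500 reads at day 0 (-4.03 against -4.09), where SF3B3 (-2.85) and RPA3 (-2.89) were also close. With TMM factors, POLR2L was also lowest (-3.51) and RPA3 highest (-2.01). Within each of the 5 genes, the number of guide pairs with separate 95% intervals was 4 of 10 for PCNA, 7 for SF3B3 and 9 each for POLR2L, POLR2A and RPA3.

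By the share kept, and with limits placed after the values were seen, 19 of the 25 guides kept 13.6% or less, 5 kept 23.2% to 43.3%, and 1 kept 75.5%. The 6 guides of the higher levels were PCNA_374, POLR2A_1569, RPA3_21, RPA3_196, SF3B3_589 and SF3B3_1935. All of these but RPA3_21, the first guide of its gene, lie between guides of the same gene that kept less on both sides. The log2 ratio showed little relation to the order of the guides along their gene (Spearman 0.024, Pearson 0.0051, n = 25 guides that share 5 targets and 2 libraries). Against the number in the name the Spearman value was 0.25 and the Pearson value -0.074, and against log2 day 0 reads they were 0.24 and 0.16. These are descriptions over guides and carry no p-value.

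Depth did not limit the measurement for most of these guides. Day 0 reads of the 25 ran from 202 to 3551 with a median of 1257, against a median of 1531 over all guides. The floor of 3 reads at day 14 corresponds to 0.0498% kept for POLR2L_90, the guide with the most reads, and to 0.876% for POLR2L_38, the guide with the fewest. The other 22 guides had between 44 and 1400 reads at day 14. The pseudocount of 1 CPM, 10.3 reads at day 14 and 10.1 at day 0, compresses the lowest of them, so PCNA_82 has a log2 ratio of -4.59 while keeping 3.40%.

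The tiled genes had higher medians than the essential gene guides but also held guides as low. Guides of SETD1A, named KMT2F in the pool, had a median log2 ratio of -1.23 over 628 guides, and 7 of them (1.11%) lay at or below -3.63, the median of the 25. Guides of KMT2D, another histone methyltransferase gene, had a median of -1.43 over 2435 guides, with 53 (2.18%) at or below that level. For KMT2C, BOD1L1 and SETD1B, named KMT2G, the medians were -0.84, -0.64 and -0.25. The essential gene guides were 4 of the 25 lowest guides of the pool and 14 of the 100 lowest, while making up 25 of 5991 guides. Most of the lowest guides were KMT2D guides, with 15 of the 25 lowest and 67 of the 100 lowest, from 2435 of the 5991 guides. The difference between these sets was not tested, since guides of a gene share their source and each day has 1 library.

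The RNA libraries show at what level the 5 targets were transcribed in this line and whether the SETD1A guide changed them at day 7. These are bulk libraries, in which fewer cells and less RNA per cell cannot be told apart, and TPM (transcript abundance scaled to a common total) keeps no sequencing depth. The line expressed luminal epithelial markers, with KRT8 at 6669 to 7028 TPM in sgSETD1A and 6059.5 to 6504 TPM in sgEmpty libraries and ESR1 at 39.1 to 41.2 TPM in sgSETD1A and 38.5 to 40.5 TPM in sgEmpty libraries. The leukocyte marker PTPRC was at most 0.191 TPM in sgSETD1A and 0.0725 TPM in sgEmpty libraries. KRT18, EPCAM and GATA3, the other epithelial markers, were at 708 TPM or above in each sgSETD1A library and at 597.7 TPM or above in each sgEmpty library. Of the fibroblast markers, COL1A1 was at 2.38 to 4.08 TPM in sgSETD1A and 2.56 to 3.10 TPM in sgEmpty libraries, and PDGFRB at most 0.0196 TPM in sgSETD1A and 0.0577 TPM in sgEmpty libraries. SETD1A itself was at 9.36, 11.3 and 10.7 TPM in sgSETD1A, against 17.5, 17.5 and 18.1 TPM in sgEmpty libraries (log2 change -0.71, limma adjusted p = 9.13e-05).

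All 5 target transcripts were well expressed in sgEmpty cells. POLR2L averaged 162.3 ± 2.6, PCNA 142.4 ± 4.18, POLR2A 124.0 ± 2.07, SF3B3 97.4 ± 2.35 and RPA3 42.0 ± 0.75 TPM (SD, n = 3). RPA3, the lowest of the 5, was still above 70.3% of the 11885 genes with a mean of at least 1 TPM, and POLR2L was above 92.5%. The order of the levels was close to that of the guide medians, POLR2A and SF3B3 being exchanged, and over 5 genes this is a description only. The guide order of POLR2A and SF3B3 also depended on the summary, with POLR2A lower by means over guides (-3.75 against -2.92).

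In sgSETD1A cells, RPA3 and SF3B3 fell and PCNA and POLR2A rose, in a comparison in which 41.5% of all tested genes were called. RPA3 was at 24.5, 21.6 and 23.6 TPM in sgSETD1A, against 41.8, 42.8 and 41.4 TPM in sgEmpty libraries. Every sgSETD1A library was below every sgEmpty library, and the mean was 55.3% of that in sgEmpty. The log2(TPM + 1) change was -0.83 (SE 0.054; limma adjusted p = 9.01e-06), the 66th largest fall of 11885 genes. RPA3 overlaps the gene UMAD1 in RefSeq, and no source used here says whether the counting used strand, so reads of both could be mixed.

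The other 4 targets moved little or not detectably. SF3B3 was at 91.1, 85.2 and 84.6 TPM in sgSETD1A, against 100.1, 96.0 and 96.2 TPM in sgEmpty libraries, a log2 change of -0.16 (SE 0.042; limma adjusted p = 0.0126), and it was not called without sgSETD1A replicate 3 (limma adjusted p = 0.0528). PCNA was at 162.4, 163.7 and 158.8 TPM in sgSETD1A, against 141.4, 147.0 and 138.9 TPM in sgEmpty libraries. The groups did not overlap, and the log2 change was 0.18 (SE 0.035; limma adjusted p = 0.00329). This stands beside a median change of 0.073 over all tested genes, and after median-ratio rescaling, which removes that offset, the change of PCNA was 0.11 (limma adjusted p = 0.0513). PCNA overlaps its antisense gene PCNA-AS1, with the same limit on strand.

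POLR2A was at 133.1, 133.6 and 135.0 TPM in sgSETD1A, against 125.8, 121.7 and 124.4 TPM in sgEmpty libraries, and the libraries of the groups did not overlap. The log2 change was 0.11 (SE 0.033; limma adjusted p = 0.0233). POLR2A was no longer called after median-ratio rescaling (0.037, limma adjusted p = 0.424) or after quantile normalization (limma adjusted p = 0.0877). With the replicate number as a block it was not called either (limma adjusted p = 0.0517). Leaving out sgSETD1A replicate 2 or 3 also lost the call (limma adjusted p = 0.0566 and 0.0829). So did leaving out sgEmpty replicate 2 or 3 (limma adjusted p = 0.0958 and 0.0585). POLR2L was at 160.4, 170.9 and 158.2 TPM in sgSETD1A, against 164.0, 159.4 and 163.7 TPM in sgEmpty libraries. The groups overlapped, and POLR2L did not pass the test (log2 change 0.0065, SE 0.038; limma adjusted p = 0.903).

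Partners of the 5 targets in their complexes changed by small amounts. The counts that follow are over whole lists and include the targets, with POLR2A among the RNA polymerase II subunits that rose. Of 12 RNA polymerase II subunits, 6 rose, none fell and 6 did not pass, where 28% of all tested genes rose and 13.5% fell, and the median change of the 12 was 0.096 log2. POLR2F rose by 0.28, POLR2K by 0.25 and POLR2D by 0.21 log2. After median-ratio rescaling only POLR2K remained called, 3 rose after quantile normalization, and 3 rose without sgSETD1A replicate 2, sgSETD1A replicate 3 or sgEmpty replicate 2. Of 7 SF3B complex genes, SF3B4 (0.19 log2) and SF3B2 (0.18) rose, SF3B3 fell and 4 did not pass, with a median of 0.049.

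Of the 3 replication protein A genes, RPA1, the large DNA-binding subunit, rose by 0.26 log2 while RPA3 fell. RPA1 was at 77.8, 72.6 and 76.8 TPM in sgSETD1A, against 62.5, 63.1 and 63.2 TPM in sgEmpty libraries (limma adjusted p = 0.00101). RPA2, the middle subunit, was at 53.1, 53.3 and 54.0 TPM in sgSETD1A, against 56.9, 61.9 and 55.1 TPM in sgEmpty libraries, a log2 change of -0.11 that did not pass with TPM as deposited (limma adjusted p = 0.0916) and passed after median-ratio rescaling (-0.19, limma adjusted p = 0.0197). The 3 subunits of this complex thus had changes of both signs, under each scaling tried.

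Of 6 genes of the clamp and its loader, 3 rose and none fell, with a median of 0.16 log2, and 1 rose after median-ratio rescaling. RFC2 and RFC5, subunits of the loader that opens the clamp, rose by 0.22 log2 each beside PCNA, and of these RFC2 alone remained called after median-ratio rescaling. Of 9 enzymes and chromatin factors that bind the clamp during replication, 3 rose, 1 fell and 5 did not pass, with a median of 0.095. The shares of these 9 that rose and fell are near the 28% and 13.5% of all tested genes. FEN1, the flap nuclease of Okazaki fragments, rose by 0.25 and LIG1, the ligase that joins them, by 0.22 log2. POLD4, the small subunit of DNA polymerase delta, fell to 147.8 ± 8.55 TPM in sgSETD1A, against 176.1 ± 4.77 TPM in sgEmpty libraries (SD, n = 3; log2 change -0.25, limma adjusted p = 0.00235).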

How the data were processed

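For the pool, the authors deposited unnormalized read counts of each guide at day 14 and day 0. A row with the column totals was left out, and its values equalled the sums of the guides. No source used here says how reads were assigned to guides. CPM, ratios, exact intervals and medians were computed with Python 3.11.15 and SciPy 1.17.1, and TMM factors with edgeR 4.0.16. The expression table held TPM values by the authors; RSEM 1.3.1, STAR 2.6.0c, bcl2fastq 2.20.0 and hg19 are listed in the submitters' processing notes without their roles. Its unnamed total row was left out. TPM was tested with limma 3.58.1 (R 4.3.3, mean-variance trend) on log2(TPM + 1) for genes with a mean of at least 1 TPM, with Benjamini-Hochberg adjustment over all of them and a threshold of 0.05. Both scripts were tested on simulated data. Whether the RNA replicates came from separate cultures is not in the labels, and the p-values reflect the spread among these libraries, which may be technical. Guides and gene lists were chosen with earlier results of these data known. All 25 guides, the 5 targets and up to 3 called genes with the largest change per list were named, with RPA2 and the label markers added. SF3B6 was matched by its older symbol SF3B14.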

Additional observations from a re-analysis of the deposited data

How the results depend on the processing

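The count of 25 essential gene guides at -1 or below stayed between 20 and 24 in the 8 alternatives that give one. Of the target medians, in the order PCNA, POLR2A, POLR2L, RPA3, SF3B3 and all 25 guides, the values were -3.29, -2.27, -3.65, -2.16, -2.84 and -2.88 without centring, -3.12, -2.09, -3.48, -1.98, -2.66 and -2.71 when centred on all guides, -3.15, -2.12, -3.51, -2.01, -2.72 and -2.74 with TMM factors, and -3.02, -1.99, -3.38, -1.88, -2.57 and -2.61 when centred on AAVS1 guides (chosen after seeing the data). Each of the centrings shifts all guides by the same amount, while TMM factors left the guides with 0 reads at day 14 as they were without centring. Summed reads gave -3.32, -2.59, -3.97, -1.81, -2.55 and -2.78 in that order. A pseudocount of 5 CPM gave -3.62 for PCNA, -3.67 for POLR2L, -2.90 for SF3B3 and -3.26 for all 25. With at least 500 reads at day 0, which removes POLR2L_38 and SF3B3_2156, POLR2L was at -4.09 and SF3B3 at -2.85. Means over guides were -3.75 for POLR2A, -4.84 for POLR2L, -2.35 for RPA3 and -2.92 for SF3B3, and depend on the pseudocount where a guide had 0 reads. Without the lowest guide, POLR2L was at -4.10, RPA3 at -2.23 and SF3B3 at -2.84, and without the highest, POLR2A was at -3.38 and POLR2L at -4.76.

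In the RNA comparison, 3327 genes were higher and 1605 lower. Median-ratio rescaling gave 1837 higher and 2284 lower, quantile normalization 2142 higher and 2056 lower, and 11 of the 37 complex genes were called after median-ratio rescaling, against 18 with TPM as deposited. Leaving out 1 library gave 2361 to 3459 higher, 1288 to 1616 lower and 13 to 20 complex genes. RPA3 was called lower in all 13 alternatives (-0.90 to -0.74). POLR2L, never called, was at -0.067 after median-ratio rescaling, -0.051 after quantile normalization, -0.027 to 0.028 without 1 library in turn (below 0 without sgSETD1A replicate 2 and, at -0.0067, without sgEmpty replicate 2). The labels do not say whether the replicate numbers pair the libraries. Same-numbered libraries deviated from their group means with correlations of 0.085, -0.10 and 0.17 for numbers 1, 2 and 3. With 3 libraries a group, whose deviations sum to 0, such correlations cannot settle the pairing. With the number as a replicate block, 3103 genes were higher, 1539 lower and 15 complex genes were called, and POLR2A had a limma adjusted p = 0.0517. The cause of these shifts was not tested.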
